A study of Aspergillus nidulans with 12 samples.

Results

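The transcripts of 6 regulators of sexual development of the filamentous fungus Aspergillus nidulans were examined: rosA (AN5170), nosA (AN1848), esdC (AN9121), nsdD (AN3152), nsdC (AN4263) and steA (AN2290). They were chosen by gene identifier, and all 6 were among the 7729 genes listed in both RNA-Seq tables of the series. Mycelium of 4 strains was grown in liquid minimal medium, with 3 biological replicates per strain and 12 libraries in all. The strain kaeA19 has proA6, kaeA19 and pabaA9, together with a biA allele that is numbered differently on each of its libraries (biA2, biA3 and biA4). Its kaeA+ control, here called wt4 as in the labels, has proA6, pabaA9 and biA1. The strain kaeA25 has proA6, kaeA25, adF9, yA2 and phenA2, and its kaeA+ control wt5 has the same markers without kaeA25. For kaeA19 the study's methods name other alleles at both auxotrophic markers (pabaA12, biA1). Both kaeA alleles are short in-frame deletions in a subunit of KEOPS, a complex known for modifying tRNA, and each comes from a single strain, so an effect of an allele and of its strain cannot be told apart.

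In A. nidulans the sexual cycle follows vegetative growth and ends in closed fruiting bodies, the cleistothecia, which hold the ascospores. Entry into the cycle needs activators, among them the GATA-type zinc-finger factor NsdD, the C2H2 zinc-finger factor NsdC and SteA, a Ste12-like factor with a homeodomain and C2H2 zinc fingers. RosA, a Zn(II)2Cys6 factor, represses sexual development, and the related NosA is needed to complete it. EsdC is a protein with a glycogen-binding domain that acts early in sexual development. Submerged mycelium of the kind sampled here normally grows without forming fruiting bodies.

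The measure used was the authors' mean, the normalized number of sequenced fragments of a gene averaged over the 6 libraries of a table. One table pools kaeA19 with wt4 (the kaeA19/wt4 libraries) and the other pools kaeA25 with wt5 (the kaeA25/wt5 libraries). A mean of this kind holds both a mutant and its control. It therefore has no SD or n per strain here, and no mutant is set against its control below. The fold changes and p-values in the tables, which are the authors' own comparison, were not used. The depth of each library is unknown. The means of all genes summed to 22310307 fragments in the kaeA19/wt4 libraries and to 21992765 in the kaeA25/wt5 libraries. Fragments of a gene grow with its length, which was not used, so values of different genes are not compared as transcript numbers.

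The label of mycelium fitted the low levels of genes of conidiophores and conidia. Genes expected in all cells, the 3 given first, do not bear on it. All 3 genes expected in any hypha lay far above the median gene, and gpdA (AN8041), for the glycolytic enzyme glyceraldehyde-3-phosphate dehydrogenase, averaged 131609 fragments in the kaeA19/wt4 libraries and 121310 in the kaeA25/wt5 libraries. Of 7 genes of conidiophores and conidia, 3 (brlA, rodA and dewA) were not among the rows used here, and the other 4 lay between 25.9 and 214 in the kaeA19/wt4 libraries and between 51.8 and 221 in the kaeA25/wt5 libraries. The highest of the 4 in both sets was yA (AN6635), of which the strains kaeA25 and wt5 carry the mutant allele yA2. The spore maturation regulator wetA (AN1937) had the ratio farthest from 1 among the 4 genes, with 25.9 fragments in the kaeA19/wt4 libraries and 83.9 in the kaeA25/wt5 libraries. Its kaeA19/wt4 mean came from 2 libraries just above 100 fragments, with the other 4 at 0. A library at or below 100 fragments is taken here to appear as 0, so this ratio depends on what was set to 0. The median gene had 932 fragments in the kaeA19/wt4 libraries and 915 in the kaeA25/wt5 libraries. Reads of bulk mycelium do not separate fewer cells of a type from less RNA per cell.

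Fragments of every regulator were present in both sets of libraries, and 3 of the 6 differed strongly in the means as deposited. The means of rosA, nosA and esdC were more than 3-fold higher in the kaeA19/wt4 libraries than in the kaeA25/wt5 libraries. The ratio of rosA depends on libraries set to 0. It is not shown that rosA stays more than 2-fold higher when fragments are allowed there. For each of the activator genes nsdD, nsdC and steA the means of the kaeA19/wt4 and the kaeA25/wt5 libraries lay within 2-fold of each other. Of the 7283 genes with a mean above 0 in both tables, 4.90% were more than 2-fold higher in the kaeA19/wt4 libraries, against 3 of the 6 regulators. Another 4.09% were more than 2-fold lower, against 0 regulators. The count of 3 includes rosA. The 6 were chosen with earlier results of these data known, so the counts are no test of such regulators as a group. The log2 ratio of all genes had a median of 0.04 and quartiles of -0.16 and 0.26. These ratios are a description without replicate error. The tables were normalized separately, and mutant, control, marker background and any difference in growth or handling cannot be told apart in them.

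**Figure D1:**
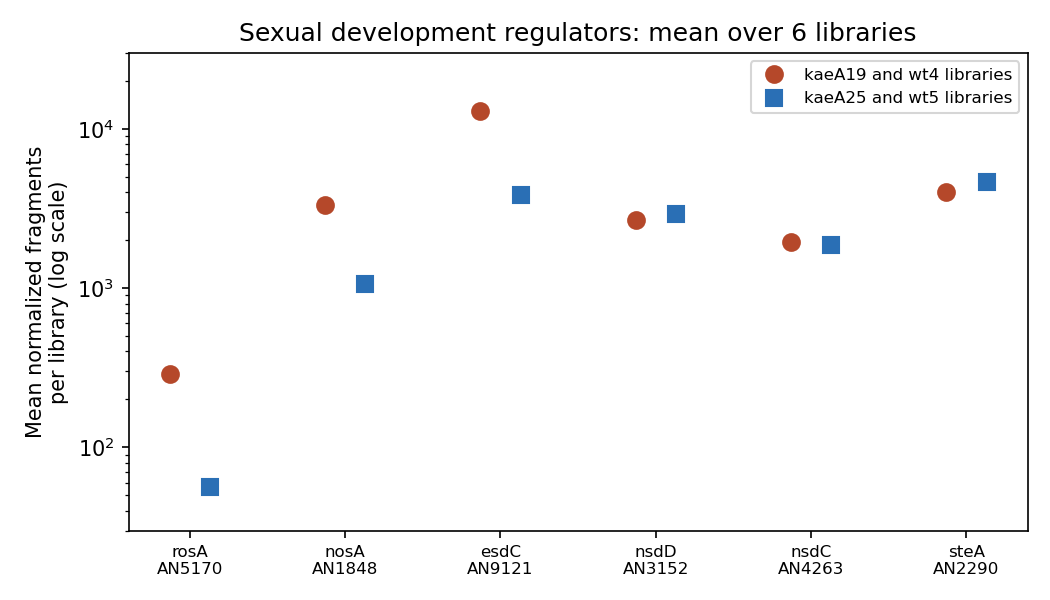
Mean normalized fragments per library (log axis) of the 6 regulators, with circles for the 6 kaeA19 and wt4 libraries and squares for the 6 kaeA25 and wt5 libraries. Each point is 1 pooled mean with no error bar. The circles of rosA, nosA and esdC stand clearly above their squares (rosA at 287 for kaeA19/wt4 and 56.0 for kaeA25/wt5, nosA at 3327 for kaeA19/wt4 and 1066 for kaeA25/wt5, esdC at 12934 for kaeA19/wt4 and 3836 for kaeA25/wt5), while both points of nsdD, nsdC and steA lie close together.

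The repressor gene rosA had the lowest number of fragments of the 6 and, with the means as deposited, the largest ratio. Its mean was 287 fragments in the kaeA19/wt4 libraries and 56.0 in the kaeA25/wt5 libraries, a ratio of 5.13 (2.36 on the log2 scale), which 36 genes of the series exceeded. In the order of fragment means, rosA stood at percentile 25.8 of the kaeA19/wt4 table and at percentile 9.5 of the kaeA25/wt5 table. It was the only one of the 6 that lay below the median gene in either table.

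The weak signal of rosA could be resolved further in the kaeA25/wt5 libraries. Low means in both tables are sums of whole fragment counts, each multiplied by a fixed value per library, and 0 of the means that came from 1 library stood for 100 fragments or fewer, so a library with up to 100 fragments appears as 0. With the values of 5 of the 6 libraries recovered, the mean of rosA had exactly 1 breakdown into at most 3 libraries, which was 269 fragments in one library and 142 in another. The other 4 libraries then stood at 0, which under this limit allows up to 100 fragments in each. Which strain these libraries belong to is not shown by the table, so the 2 counts are unlabelled. With 100 fragments put into the 3 of these libraries whose value is known, the mean of rosA in the kaeA25/wt5 libraries would be 94.3 and its ratio 3.05, below those of nosA (3.12) and esdC (3.37). The remaining library at 0, whose value was not found, is left out. Fragments there would lower the ratio further, so it is not shown that rosA stays more than 2-fold higher. Both the size of the ratio and its rank among the 6 and among all genes thus depend on what was set to 0. The mean of rosA in the kaeA19/wt4 libraries had no breakdown into 3 or fewer of the 5 known libraries. It was left as deposited, and fragments in any library set to 0 there would raise the ratio.

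The related gene nosA was much more strongly read. It averaged 3327 fragments in the kaeA19/wt4 libraries and 1066 in the kaeA25/wt5 libraries, a ratio of 3.12 (1.64 on the log2 scale), with 131 genes of the series above it. It stood at percentile 81.9 of the kaeA19/wt4 table, against percentile 54.4 of the kaeA25/wt5 table, where it was close to the median gene. The genes rosA and nosA encode factors of the same family. Both had a ratio above 1 in the means as deposited, as did 56.2% of the genes with a mean above 0 in both tables.

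The gene esdC had the most fragments of the 6 in the kaeA19/wt4 libraries. Its mean was 12934 fragments in those libraries and 3836 in the kaeA25/wt5 libraries, a ratio of 3.37 (1.75 on the log2 scale) that 110 genes exceeded. In fragments it stood at percentile 96.4 of the kaeA19/wt4 table, against percentile 85.0 of the kaeA25/wt5 table. At such levels counting error is small, and no value per library was used that would show the spread between replicates.

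The 3 activator genes had like levels in both sets of libraries. The mean of nsdD was 2691 fragments in the kaeA19/wt4 libraries and 2932 in the kaeA25/wt5 libraries, a log2 ratio of -0.12. For nsdC it was 1943 in the kaeA19/wt4 libraries and 1860 in the kaeA25/wt5 libraries, with a log2 ratio of 0.06 next to the median of all genes. The factor gene steA averaged 4001 fragments in the kaeA19/wt4 libraries and 4640 in the kaeA25/wt5 libraries, a log2 ratio of -0.21, at percentile 21.5 of the ratios of all genes. Of the 3, nsdC lay nearest to the middle of the distribution, at percentile 52.7 of the ratios, and nsdD at percentile 28.8. In fragment means the 3 genes stood between percentiles 69.9 and 85.2 of the kaeA19/wt4 table and between 69.8 and 87.7 of the kaeA25/wt5 table. Without replicate error, ratios of this size are not shown to differ from 1, nor to equal it.

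**Figure D2:**
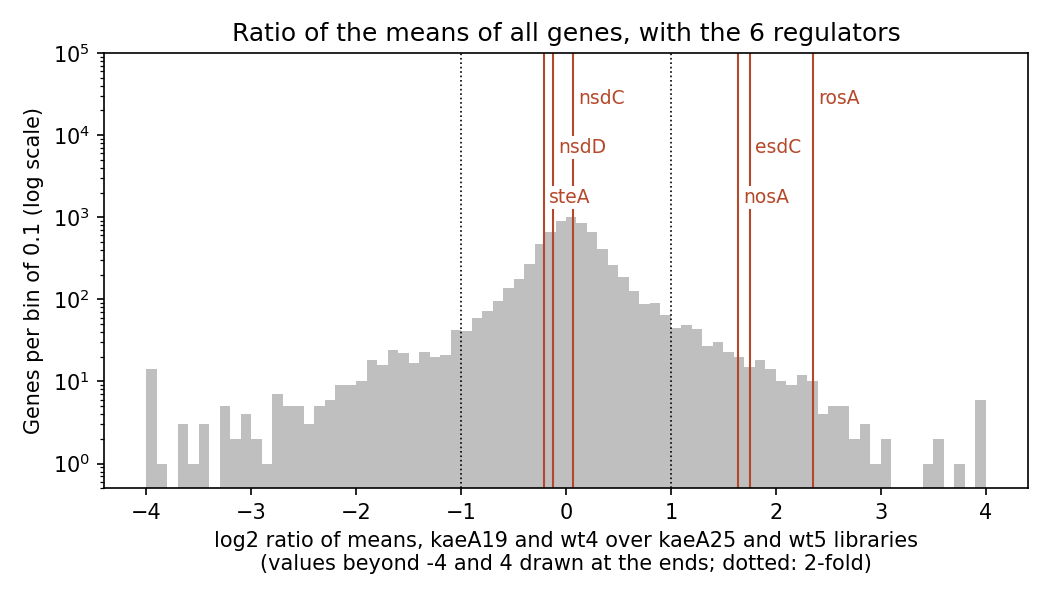
Distribution of the log2 ratio of the mean, kaeA19 and wt4 libraries over kaeA25 and wt5 libraries, for the 7283 genes with a mean above 0 in both (genes per bin on a log axis). Vertical lines mark the 6 regulators and dotted lines a 2-fold ratio. The lines of nosA (1.64), esdC (1.75) and rosA (2.36) lie in the upper tail, and those of steA (-0.21), nsdD (-0.12) and nsdC (0.06) in the centre.

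The order of the 6 by fragment mean differed between the sets of libraries. In the kaeA19/wt4 libraries it ran, from high to low, esdC, steA, nosA, nsdD, nsdC and rosA. In the kaeA25/wt5 libraries steA stood above esdC, followed by nsdD, nsdC, nosA and rosA. The order steA, nsdD and nsdC was found in both, and the place of esdC and nosA among them changed. Neighbours in this order, such as steA with 4001 and nosA with 3327 fragments in the kaeA19/wt4 libraries, cannot be said to differ, as there is no spread and no length behind them.

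Most other genes of the sexual cycle lay within 2-fold, as did most genes of the series. Of 29 further genes with parts in light sensing, velvet function, mating type, pheromone signalling, oxylipin synthesis and fruiting body formation, 27 were listed and 26 had a mean above 0 in both tables. Of these 26, 25 lay within 2-fold, 1 was more than 2-fold higher in the kaeA19/wt4 libraries and 0 were more than 2-fold lower, against 4.90% higher and 4.09% lower among all genes. Their median log2 ratio was 0.11, against 0.04 for all genes. The exception was AN6320, with a mean of 99.1 in the kaeA19/wt4 libraries and 21.8 in the kaeA25/wt5 libraries. The kaeA19/wt4 mean broke down into 397, 222 and 148 fragments in 3 libraries, and the kaeA25/wt5 mean was 160 fragments in 1 library. Like rosA, AN6320 thus lies near the limit of 100 fragments, where a ratio depends on what was set to 0.

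Among the 8 genes of velvet function and light sensing, all within 2-fold, 2 were higher and 6 lower in the kaeA19/wt4 libraries. The velvet regulator gene veA (AN1052), which links light to the choice between asexual and sexual development, had 5116 fragments in the kaeA19/wt4 libraries and 3403 in the kaeA25/wt5 libraries, a log2 ratio of 0.59. Its partner velB (AN0363) had a log2 ratio of -0.29. The gene lreB (AN3607), for a subunit of the blue-light receptor, had few fragments, 68.2 in the kaeA19/wt4 libraries and 111 in the kaeA25/wt5 libraries. The phytochrome gene fphA (AN9008), for the red-light receptor, had 3580 fragments in the kaeA19/wt4 libraries and 4066 in the kaeA25/wt5 libraries.

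In the mating and pheromone group 9 genes had a mean above 0 in both tables and all 9 lay within 2-fold. With 4.90% of all genes more than 2-fold higher and 4.09% lower, this and the like count of the velvet and light genes set neither group apart from other genes. Here the G protein beta subunit gene sfaD (AN0081) had 7666 fragments in the kaeA19/wt4 libraries and 6427 in the kaeA25/wt5 libraries, and the mating type gene MAT2 (AN4734) was the weakest. It was listed at 0 in the kaeA19/wt4 libraries. In the kaeA25/wt5 libraries its mean of 45.6 broke down into 124, 119 and 111 fragments in 3 libraries, all just above the limit, so the 0 does not show that the gene is silent. The MAP kinase gene mpkB (AN3719), whose pathway acts upstream of SteA, had a log2 ratio of -0.19, against -0.21 for steA. Of the 9 genes, 2 had a ratio below 1, mpkB among them, and 7 a ratio above 1, with a median log2 ratio of 0.25. In the remaining group the transcription factor gene cpcA (AN3675) had the most fragments, 20447 in the kaeA19/wt4 libraries and 19816 in the kaeA25/wt5 libraries, and csnE (AN2129), for a subunit of the COP9 signalosome, the fewest, 917 in the kaeA19/wt4 libraries and 865 in the kaeA25/wt5 libraries.

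The genes next to the regulators were looked at because a ratio can be shared by a stretch of the genome. In the RefSeq order of assembly ASM1142v1, used for gene order alone, the 6 regulators have 12 adjacent genes, of which 11 were listed and 10 had a mean above 0 in both tables. Of these 10, 7 lay within 2-fold and 3 were more than 2-fold higher in the kaeA19/wt4 libraries, against 4.90% of all genes higher and 4.09% lower. Beside rosA this was AN5169, with 1021 fragments in the kaeA19/wt4 libraries and 277 in the kaeA25/wt5 libraries. Beside nosA it was AN1847, with 1170 in the kaeA19/wt4 libraries and 493 in the kaeA25/wt5 libraries. Beside nsdC it was AN4264, with 5858 in the kaeA19/wt4 libraries and 1629 in the kaeA25/wt5 libraries. The study's annotation gives AN5169 and AN4264 the same role by orthology, the formation of syncytia by fusion of plasma membranes. Both were named after their values were seen, and the roles of the other adjacent genes are not given here. Whether adjacent genes share a role was not tested. The gene on the other side of rosA, AN5171, was listed at 0 in the kaeA19/wt4 libraries, and its mean of 38.8 in the kaeA25/wt5 libraries was 276 fragments in 1 library.

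The ratios of both neighbours of esdC were near 1 in the means as deposited. The mean of AN9122 was 30.4 in the kaeA19/wt4 libraries, from 121 and 119 fragments in 2 libraries, and 30.6 in the kaeA25/wt5 libraries, from 142 and 112 fragments in 2 libraries. The other 4 libraries of each table stood at 0, so the ratio of AN9122 also depends on what was set to 0. The mean of AN9120 was 4739 in the kaeA19/wt4 libraries and 4968 in the kaeA25/wt5 libraries. The other neighbour of nosA, AN1849, had a log2 ratio of 0.21. The ratio of nsdC itself was 1.04, between that of AN4264 (3.60) and that of AN10533 (0.75). Whether adjacent genes share reads was not tested, and no source used here says if the counting used strand.

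**Figure D3:**
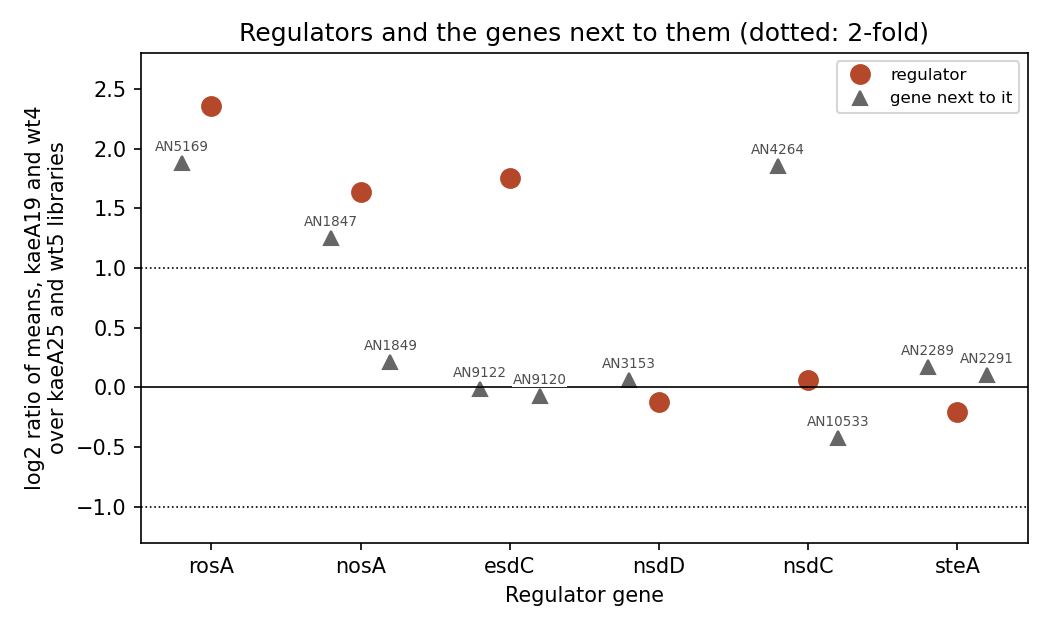
Log2 ratio of the mean, kaeA19 and wt4 libraries over kaeA25 and wt5 libraries, of each regulator (circle) and of the genes next to it (triangles), with dotted lines at a 2-fold ratio. AN5169 (1.88), AN4264 (1.85) and AN1847 (1.25) lie above the upper line, while the neighbours of esdC, at -0.01 and -0.07, lie far below it, the first of them (AN9122) from means near the limit of 100 fragments. AN5171 and AN3151 are not drawn, as they have no ratio.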

How the data were processed

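RNA of rRNA-depleted mycelium was sequenced in pairs of 75 bp reads. Per the study's methods, the authors used TopHat 2 with Bowtie2 and the FGSC A4 genome of AspGD (s09-m04-r07), kept correctly oriented pairs and counted fragments per locus with ShortRead. The deposited mean is a signal, averaged over 6 libraries after each library's fragment counts were scaled. The other 5 columns of each table, log2 fold change, standard error, statistic, p-value and adjusted p-value, hold the authors' comparison and were not used. The authors name edgeR, while the headers are those of a DESeq2 table.

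Ratios are kaeA19/wt4 over kaeA25/wt5 means without a pseudocount, and percentiles are over all 7729 genes. No test was made. The value of 1 fragment per library was sought starting from means below 60, with some higher means used in scoring. Only counts of 101 or more were allowed. Quotients within 1e-09 of a whole number (1e-10 in sums) were called whole, with a wider tolerance while candidate values were scored. The value was found for 5 of 6 libraries in each table. Of means below 60, 99.3% (kaeA19/wt4) and 99.1% (kaeA25/wt5) then had 1 breakdown into at most 3 libraries. On simulated data with counts below 101 also set to 0, all single breakdowns of means below 60 were right (330 for kaeA19/wt4, 350 for kaeA25/wt5). The limit itself was thus not tested, and the kaeA19/wt4 mean of AN6320 (99.1) lies above that range. Symbols were taken from RefSeq, the study's tables or the definition of the 6 genes, and of the further genes those with an agreeing symbol that were highest or lowest in their group were named. AN6320, velB, fphA, mpkB, wetA, yA and the adjacent genes were named after their values were seen. The members and lists were chosen with earlier results of these data known. The work was done in Python 3.11.15 (numpy 2.4.6, pandas 2.3.3) with figures in matplotlib 3.10.9.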

Additional observations from a re-analysis of the deposited data

How the results depend on the processing

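With the means divided by the total of their table, with the median ratio of all genes set to 0, or with a pseudocount of 10, the log2 ratios of the 6 regulators moved by at most 0.19, and 3 regulators stayed more than 2-fold higher. In an alternative chosen after seeing the data, with 100 fragments put into 3 of the libraries of the kaeA25/wt5 table where rosA was set to 0, the log2 ratio of rosA was 1.61, below those of esdC (1.75) and nosA (1.64). The sixth library, whose value was not found, is left out of it, and fragments there would lower the ratio further. The kaeA19/wt4 mean was left as deposited, and fragments in any library set to 0 there would raise the ratio. Among genes with a mean above 0 alone, percentiles were 0.2 to 2.6 lower, and 5 regulators stayed above the median gene in each table. Levels per coding length were not run, because the reference lengths are from another assembly. Pooled means allow neither leaving out a library nor a test between mutant and control. No paired analysis was possible because the means carry no replicate numbers.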
